A study of Mus musculus with 17 samples.

Results

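The 10 genes described here, of 23284 in the count tables, encode cell adhesion proteins and were taken by symbol: Ncam1 and Ncam2; L1cam, Chl1, Nrcam and Nfasc of the L1 family; the astrotactins Astn1 and Astn2; and Alcam and Cadm1. RNA was sequenced from 17 mouse tumours whose labels give the pituitary as the tissue. All 17 tumours carried engineered alleles of Rb1 and Trp53, the genes of the retinoblastoma protein and p53. Of them 9 carried no other labelled allele (Rb1/Trp53), and 8 also carried one of Crebbp (Rb1/Trp53/Crebbp), which encodes a histone acetyltransferase and coactivator of transcription; the study asked which genes Crebbp regulates. The sources used here do not give the kind of allele, the Cre driver, strain, age or any treatment. No label states separate mice for separate tumours, so p-values measure only the spread between these samples.

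These proteins sit in the cell membrane and hold neighbouring cells together, mostly through immunoglobulin-like and fibronectin-like domains outside the cell. Ncam proteins bind each other across cells and can be loosened by polysialic acid, whereas L1 family proteins tie adhesion to the membrane skeleton through ankyrin and spectrin. Astrotactins are neuronal membrane proteins that serve the migration of young neurons along glial fibres. Neuroendocrine cells, including those of the pituitary and the thyroid C cells, carry several of these neuronal adhesion proteins, and Ncam1 is a common histological marker of neuroendocrine tumours.

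The libraries to be compared were selected on measured values, their counts of Calca (calcitonin gene) and Pomc (ACTH precursor gene): a library with more Calca than Pomc was taken as Calca-high, and the others as Pomc-high. The 10 Pomc-high libraries comprised 6 Rb1/Trp53 (T2 and T5 to T9) and 4 Rb1/Trp53/Crebbp (T5 to T8), and the 7 Calca-high libraries comprised 3 Rb1/Trp53 (T1, T3 and T4) and 4 Rb1/Trp53/Crebbp (T1 to T4). No library lay near the dividing line, since the ratio of Calca to Pomc counts was at least 1038 in the Calca-high and at most 0.00228 in the Pomc-high libraries. Markers that the rule did not use show how far the libraries meet the pituitary label, in CPM (normalised read counts, scaled by TMM). Tbx19, which drives the Pomc lineage, stood at 305 to 418 CPM in the Pomc-high and at 0 to 0.316 CPM in the Calca-high libraries, and Pax7 at 125 to 298 against 0 to 0.183 CPM. Of the thyroid C-cell genes outside the rule, Nkx2-1 stood at 0.426 to 14.4 CPM in the Pomc-high and 188 to 331 CPM in the Calca-high libraries, and Ret at 0.533 to 8.51 against 126 to 427 CPM. The Calca-high libraries thus went against the pituitary label. The 2 sets are not groups of the study.

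The total count on genes was 8328297 to 28140755 per library. Crebbp counts cover the whole gene and check no label: the log2 fold change of Rb1/Trp53/Crebbp over Rb1/Trp53 was -0.01 ± 0.20 (SE) over all libraries. Within the Calca-high set Crebbp mRNA was higher with the Crebbp allele (67.3 to 93.3 against 48.2 to 55.6 CPM), by 0.60 ± 0.12 on the log2 scale (adjusted p = 0.00723, edgeR), whereas in the Pomc-high set it differed by -0.47 ± 0.23 and did not pass (adjusted p = 0.239, edgeR; -0.42 without Rb1/Trp53/Crebbp T8). The difference of these effects was 1.08 ± 0.32 (adjusted p = 0.024, edgeR), and 0.99 ± 0.34 without Rb1/Trp53/Crebbp T8 (adjusted p = 0.0446, edgeR). Rb1/Trp53/Crebbp T8 stood apart in the Pomc-high set. Its 7 astroglia and pituicyte markers summed to 561 CPM against 13.3 to 60.0 CPM in the 9 other Pomc-high libraries, its 7 oligodendrocyte markers to 648 against 43.5 to 107 CPM, and its 7 neuron markers to 359 against 138 to 208 CPM. The log2 differences of the members between genotypes and sets that include this library are therefore given with and without it. So are the calls of the partner genes in the Pomc-high set and in the test of the difference of the effects. Other descriptions, such as levels per kilobase, counts by fold between the sets and correlations, are given with it only.

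Astn1 and Alcam are introduced first, because they were the members whose count differed by genotype in both sets, Astn1 in the same direction and Alcam in opposite directions. The 250 bases before their start sites are shown from the RefSeq promoter table of build GRCm38.p6, on the strand of the gene. Astn1 lies at chr1:158362054-158362303 on the plus strand, and Alcam at chr16:52453082-52453331 on the minus strand. Capitals mark each match, on either strand, to TGACG, the core of the cAMP response element at which Crebbp can be recruited, and to CANNTG, the E-box bound by basic helix-loop-helix factors.
Astn1: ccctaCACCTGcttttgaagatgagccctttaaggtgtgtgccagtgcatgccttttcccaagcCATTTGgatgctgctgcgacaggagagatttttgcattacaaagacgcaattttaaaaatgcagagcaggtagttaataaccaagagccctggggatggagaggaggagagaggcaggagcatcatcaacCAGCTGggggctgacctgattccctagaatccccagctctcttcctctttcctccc
Alcam: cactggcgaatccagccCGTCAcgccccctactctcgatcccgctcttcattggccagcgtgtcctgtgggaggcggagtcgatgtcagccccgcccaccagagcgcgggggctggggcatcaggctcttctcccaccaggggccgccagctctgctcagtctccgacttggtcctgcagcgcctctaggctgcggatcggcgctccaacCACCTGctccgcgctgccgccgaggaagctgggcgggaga
The Astn1 stretch held 3 E-boxes and no TGACG core, with a GC content of 50.4%. The Alcam stretch held 1 TGACG core on the opposite strand and 1 E-box, with a GC content of 69.2%. Of all 32851 promoters of this length in the table, 17.77% held at least 1 core and 66.22% at least 1 E-box, so an E-box is a common match. The share of promoters with 3 E-boxes was not counted. The full element, in which TCA follows the core, stood in 1.546% of all promoters and in none of the 10 promoters that the table lists for 8 of the members (Nfasc, Astn1, Astn2, Chl1, Nrcam, Alcam, Ncam2 and L1cam).

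Per length of transcript, Alcam, Ncam1, Cadm1 and Nfasc were the abundant members in both sets. CPM were divided by the length in kilobases of all exons of the gene in GENCODE M21, an annotation of another build than the mm9 of the counts, so these levels are approximate. In the Pomc-high libraries the medians were 80.3 CPM per kilobase for Alcam, 42.8 for Ncam1, 34.3 for Cadm1, 21.2 for Nfasc, 7.39 for Nrcam, 4.02 for Astn1, 3.05 for L1cam, 1.28 for Ncam2, 0.918 for Astn2 and 0.505 for Chl1. Neighbours in this order overlapped in range, with the exception of Nfasc (17.3 to 30.2 CPM per kilobase) and Nrcam (6.41 to 14.6). In the Calca-high libraries the order was Cadm1 at 63.3 CPM per kilobase, Ncam1 at 45.0, Alcam at 24.1, Nfasc at 22.4, L1cam at 7.95, Chl1 at 6.87, Astn2 at 3.18, Astn1 at 2.98, Nrcam at 1.25 and Ncam2 at 0.230. Here too neighbours overlapped, with the exception of Nfasc (16.8 to 29.8) and L1cam (4.30 to 11.5).

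Ncam2, Astn1, Nrcam and Alcam stood higher in the Pomc-high set, and Chl1, Astn2, L1cam and Cadm1 in the Calca-high set. As a description without a test, since the sets were made from counts of these libraries, the log2 difference of Pomc-high over Calca-high libraries was 3.002 for Ncam2, 2.93 for Astn1, 2.85 for Nrcam and 1.61 for Alcam. It was -2.54 for Chl1, -1.30 for Astn2, -0.93 for L1cam and -0.59 for Cadm1. Ncam1 (0.05) and Nfasc (-0.11) lay near 0, and both values change sign in other fits. Without Rb1/Trp53/Crebbp T8 the differences were -3.23 for Chl1, -1.63 for Astn2 and -1.21 for L1cam, and those of the other members were 2.84 for Ncam2, 2.78 for Astn1, 2.69 for Nrcam, 1.70 for Alcam, -0.61 for Cadm1, 0.05 for Ncam1 and -0.07 for Nfasc. Within the L1 family Nrcam stood higher beside Pomc, and Chl1 and L1cam beside Calca, and of the astrotactins Astn1 stood higher beside Pomc and Astn2 beside Calca. The Astn1 difference depended on genotype. Beside Pomc and Calca it stood at 19.1 to 34.6 against 0.455 to 1.505 CPM in the Rb1/Trp53 libraries. In the Rb1/Trp53/Crebbp libraries it stood at 51.6 to 132 (the highest being T8) against 25.0 to 44.8 CPM, and over both genotypes the sets overlapped. In bulk tissue, fewer cells of a type and less RNA per cell cannot be told apart.

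The CPM of 3 members, Ncam2, Nrcam and Alcam, did not overlap between the sets and were higher in the Pomc-high libraries; over all 15432 genes tested 22.6% did not overlap. Without Rb1/Trp53/Crebbp T8 the members that did not overlap were 6, with L1cam, Chl1 and Astn2 higher in the Calca-high libraries. At least 2-fold separated the sets for 6 members (25.9% of all genes) and at least 4-fold for 4 (12.8% of all genes). The plot of the members by library shows these levels.

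**Figure D1:**
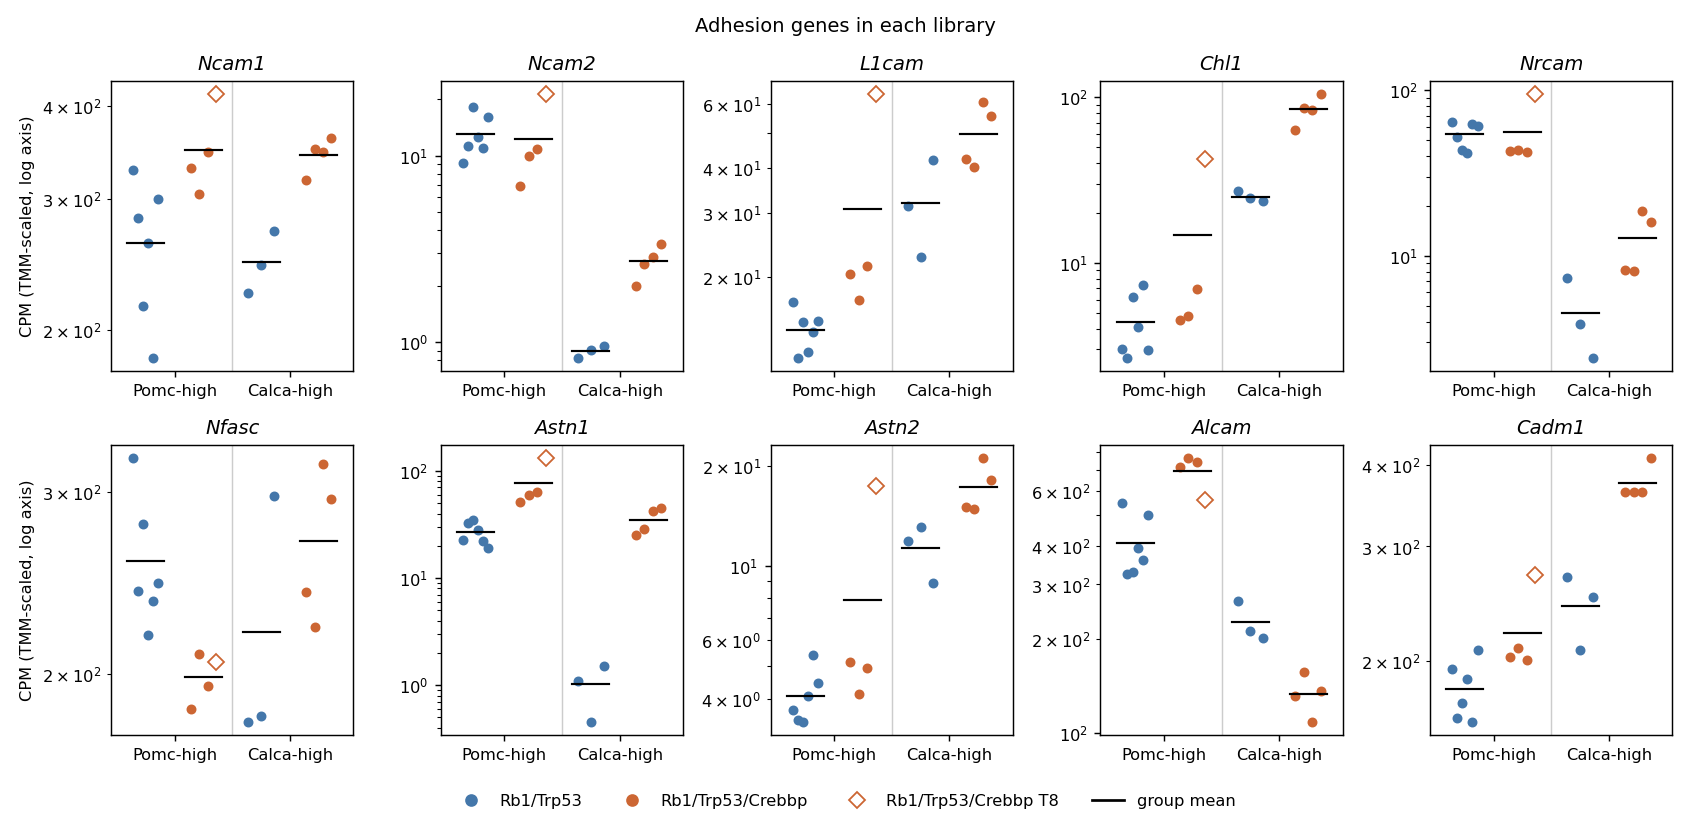
CPM (TMM-scaled, log axis) of each of the 10 genes in the 17 libraries, by set and genotype; each point is a library, lines are group means and the open diamond is Rb1/Trp53/Crebbp T8. Astn1 stood at 0.455 to 1.505 CPM in the 3 Rb1/Trp53 libraries of the Calca-high set and at 19.1 CPM or above in all other libraries.

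Over all 17 libraries, Ncam1 was the single member that changed with genotype. It stood at 183 to 328 CPM in the 9 Rb1/Trp53 libraries and at 305 to 414 CPM in the 8 Rb1/Trp53/Crebbp libraries, with overlap, and rose by 0.43 ± 0.10 on the log2 scale (SE), with an adjusted p = 0.0298 by the quasi-likelihood F test of edgeR, in which p-values were adjusted by Benjamini-Hochberg over 14338 genes. Of all genes tested, 3.86% passed the adjusted p threshold of 0.05 (1.81% higher and 2.05% lower). No member was without overlap between the genotypes over all libraries, as were 0.718% of all genes (0.453% lower). Without Rb1/Trp53/Crebbp T8 it rose by 0.40 ± 0.10 (adjusted p = 0.0462, edgeR) and was still the single member that passed. The call was lost without Rb1/Trp53 T6 (adjusted p = 0.052, edgeR), without Rb1/Trp53 T7 (0.0511) or without Rb1/Trp53/Crebbp T4 (0.0552). Another 5 members had an unadjusted p under 0.05, and the median log2 fold change was 0.50 over the members and -0.02 over all genes. With the set as a second term 6 members rose and 0 fell, where 18% of all genes passed (8.22% higher and 9.74% lower): Ncam1, L1cam, Chl1, Astn1, Astn2 and Cadm1. The same 6 rose without Rb1/Trp53/Crebbp T8, where 18.3% of all genes passed, with smaller differences for L1cam (0.56 in place of 0.90), Chl1 (1.13 in place of 1.78) and Astn2 (0.43 in place of 0.81). These fits share their libraries with the fits within each set.

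Within the 7 Calca-high libraries the Rb1/Trp53/Crebbp tumours had more mRNA of Astn1, Chl1, Ncam2, Nrcam, Cadm1, Astn2 and Ncam1 and less of Alcam. These 8 of 10 members passed the threshold in a fit in which 36.2% of all 14797 genes did (19.1% higher and 17.1% lower), so a call is common here, and the median log2 fold change was 0.65 over the members and -0.02 over all genes. The CPM of all 8 did not overlap between genotypes, as for 44.4% of all genes (22% higher and 22.5% lower). L1cam and Nfasc did not pass.

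Markers of several cell types also differed between the genotypes of this set. The 5 thyroid follicle markers, all of which fell, summed to 2114 to 16867 CPM in the 3 Rb1/Trp53 libraries and to 927 to 1295 CPM in the 4 Rb1/Trp53/Crebbp libraries. The 3 C-cell markers, Calca, Nkx2-1 and Ret, fell as well and summed to 118175 to 177244 CPM against 34759 to 67716 CPM, nearly all of it Calca. The log2 fold change was -1.41 for Calca, a gene of the rule (adjusted p = 0.00868, edgeR). Outside the rule it was -1.23 for Ret (adjusted p = 0.00188) and -0.58 for Nkx2-1 (adjusted p = 0.00656). Endothelial markers stood at 49.3 to 63.0 against 26.9 to 38.1 CPM, and oligodendrocyte markers at 83.3 to 121 against 63.5 to 80.1 CPM, mostly Mbp, without overlap. Lung epithelium markers (63.0 to 160 against 38.5 to 66.6 CPM), fibroblast markers (552 to 869 against 185 to 625 CPM) and macrophage markers (193 to 232 against 71.0 to 210 CPM) overlapped, with higher levels mostly in the Rb1/Trp53 libraries. Within the lung list Sftpb rose (0.97, adjusted p = 0.0263, edgeR), Sftpc (-1.84, 0.0141) and Scgb1a1 (-4.00, 0.0168) fell, and Sftpa1 did not pass. The neuroendocrine granule gene Chga fell from 7973 to 11066 CPM to 3138 to 5826 CPM (-0.95 ± 0.24, adjusted p = 0.0162, edgeR), while the synaptic vesicle gene Syp, at 267 to 315 against 242 to 288 CPM, did not pass (adjusted p = 0.269). The sums of neuron markers (17.4 to 25.2 against 18.2 to 21.5 CPM) and astroglia and pituicyte markers (14.2 to 19.5 against 13.9 to 34.9 CPM) overlapped, although among the neuron markers Gad1 rose (4.52, adjusted p = 0.0085, edgeR) and Slc17a7 fell (-1.42, adjusted p = 0.0169). Of the astroglia and pituicyte markers Aqp4 fell (-1.76, adjusted p = 0.0465, edgeR), and no other tested gene of that list passed. The part of the differing markers in the results of this set was not tested.

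Of the Ncam pair, Ncam1 stood at 224, 245 and 272 CPM in Rb1/Trp53 T1, T3 and T4 and at 318, 349, 346 and 362 CPM in Rb1/Trp53/Crebbp T1 to T4. Every Rb1/Trp53/Crebbp library lay above every Rb1/Trp53 library, and Ncam1 rose by 0.49 ± 0.09 on the log2 scale (adjusted p = 0.00631, edgeR). Ncam1 shares 417 exon bases with the antisense gene Gm11149, and the sources used here do not give the strand setting of the counting, so reads from that stretch cannot be told apart. Ncam2, the paralog known from olfactory axons, stood at 0.824, 0.911 and 0.953 CPM against 2.004, 2.63, 2.87 and 3.37 CPM. The groups did not overlap at this low level, and Ncam2 rose by 1.62 ± 0.29 (adjusted p = 0.0052, edgeR).

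Of the L1 family, Chl1, the close homolog of L1 that guides neuronal processes, stood at 27.1, 24.6 and 23.7 CPM in the Rb1/Trp53 libraries and at 63.4, 86.6, 83.5 and 104 CPM in the Rb1/Trp53/Crebbp libraries. The lowest of the latter was well above the highest of the former, and Chl1 rose by 1.77 ± 0.16 (adjusted p = 0.00078, edgeR). Nrcam, which gathers sodium channels at nodes of Ranvier together with Nfasc, stood at 7.32, 3.87 and 2.41 CPM against 8.23, 8.13, 18.7 and 16.0 CPM. The groups came close without overlapping, and Nrcam rose by 1.51 ± 0.46 (adjusted p = 0.0349, edgeR). The Nrcam call was lost in 4 of 7 fits that left out 1 library: Rb1/Trp53 T3 (adjusted p = 0.108, edgeR), Rb1/Trp53 T4 (0.0729), Rb1/Trp53/Crebbp T3 (0.0851) or Rb1/Trp53/Crebbp T4 (0.0812).

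L1cam itself, a promoter of neurite growth, stood at 31.4, 22.8 and 42.1 CPM against 42.3, 40.4, 60.9 and 55.6 CPM. Rb1/Trp53 T4 lay above Rb1/Trp53/Crebbp T2, and the difference of 0.65 ± 0.22 did not pass (adjusted p = 0.0525, edgeR), although it did without Rb1/Trp53 T4 (0.89, adjusted p = 0.0162) or without Rb1/Trp53/Crebbp T2 (0.74, adjusted p = 0.0487). Nfasc, the organiser of the axon initial segment, stood at 180, 182 and 297 CPM against 240, 222, 319 and 295 CPM. Rb1/Trp53 T4 was again the high library of its group, and the difference of 0.31 ± 0.21 did not pass (adjusted p = 0.264, edgeR). Without Rb1/Trp53 T4 the Nfasc difference was 0.59 (adjusted p = 0.0247, edgeR).

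Astn1 had the largest genotype difference of the members in this set. It stood at 1.10, 0.455 and 1.505 CPM in Rb1/Trp53 T1, T3 and T4, which rests on 24, 12 and 30 reads, and at 25.0, 28.9, 42.0 and 44.8 CPM in Rb1/Trp53/Crebbp T1 to T4. All 4 Rb1/Trp53/Crebbp libraries lay far above the 3 others, and the group means were 1.02 ± 0.529 (SD, n = 3) and 35.2 ± 9.71 CPM (SD, n = 4). Astn1 rose by 5.15 ± 0.41 on the log2 scale (adjusted p = 0.000727, edgeR), rank 35 of 14797 genes by p. Astn2, which regulates how much Astn1 stands on the cell surface, stood at 11.9, 13.1 and 8.93 CPM against 15.1, 14.9, 21.1 and 18.2 CPM. The groups did not overlap, and Astn2 rose by 0.63 ± 0.19 (adjusted p = 0.0309, edgeR). The Astn2 call was lost without Rb1/Trp53 T1 (adjusted p = 0.0616, edgeR), Rb1/Trp53 T4 (0.0649), Rb1/Trp53/Crebbp T3 (0.0743) or Rb1/Trp53/Crebbp T4 (0.0751). Trim32 lies within Astn2 on the opposite strand but shares 0 exon bases with it.

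Alcam, the receptor of the lymphocyte protein CD6 and an adhesion protein of epithelia, endothelium and growing axons, was the member that fell. It stood at 266, 213 and 202 CPM in the Rb1/Trp53 libraries and at 131, 158, 109 and 137 CPM in the Rb1/Trp53/Crebbp libraries. Each of the latter lay below each of the former, and Alcam fell by 0.75 ± 0.15 on the log2 scale (adjusted p = 0.00693, edgeR). Cadm1, a synaptic and epithelial adhesion protein, stood at 270, 208 and 251 CPM against 364, 364, 364 and 411 CPM. The groups did not overlap, and Cadm1 rose by 0.65 ± 0.11 (adjusted p = 0.00417, edgeR). The calls of Ncam1, Ncam2, Chl1, Astn1, Alcam and Cadm1 held when any 1 of the 7 Calca-high libraries was left out.

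Within the 10 Pomc-high libraries Astn1 and Alcam rose with the Crebbp allele and no member passed as lower. That was 2 of 10 members in a fit in which 8.42% of all 14010 genes passed (3.15% higher and 5.26% lower). Another 6 members had an unadjusted p under 0.05, and the median log2 fold change was 0.61 over the members and 0.01 over all genes. The CPM of L1cam, Astn1 and Alcam were higher without overlap in the Rb1/Trp53/Crebbp libraries, and that of Nfasc lower without overlap, against 9.73% of all genes that did not overlap (5.87% lower). Endothelial markers summed to 27.2 to 51.2 CPM in the Rb1/Trp53 and 12.98 to 39.2 CPM in the Rb1/Trp53/Crebbp libraries, and macrophage markers to 87.3 to 275 against 25.3 to 144 CPM. Hormone genes of other anterior lobe cells varied most, at 11.3 to 14269 against 48.1 to 2342 CPM, and were highest in Rb1/Trp53 T6. The part of these markers was not tested.

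**Figure D2:**
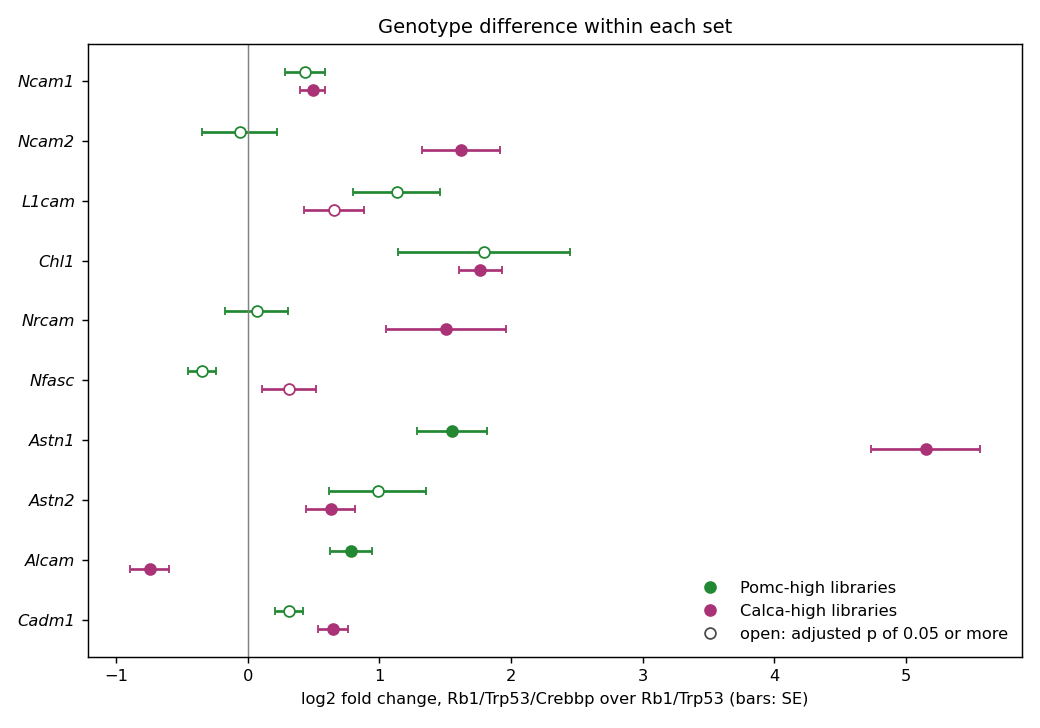
Log2 fold change of Rb1/Trp53/Crebbp over Rb1/Trp53 for each gene within the Pomc-high (green) and Calca-high (purple) libraries; bars are SE and open points have an adjusted p of 0.05 or more (edgeR). Alcam lay at 0.79 in one set and at -0.75 in the other, and Astn1 at 1.55 and 5.15.

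Astn1 ranged from 19.1 to 34.6 CPM in the 6 Rb1/Trp53 libraries, with a median of 25.5 CPM, and stood at 51.6, 60.0, 63.9 and 132 CPM in Rb1/Trp53/Crebbp T5 to T8. All 4 of these lay above the other genotype, T8 by the most, and Astn1 rose by 1.55 ± 0.26 (adjusted p = 0.00581, edgeR). Without T8 the rise was 1.17 ± 0.17 (adjusted p = 0.00139, edgeR). Alcam ranged from 323 to 549 CPM in the Rb1/Trp53 libraries, with a median of 376 CPM, and stood at 713, 763, 743 and 558 CPM in the Rb1/Trp53/Crebbp libraries. Here T8 was the lowest of its group and still above every Rb1/Trp53 library. Alcam rose by 0.79 ± 0.16 (adjusted p = 0.00929, edgeR), and by 0.89 ± 0.16 without T8 (adjusted p = 0.00524, edgeR). Both calls held when any 1 of the 10 Pomc-high libraries was left out.

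For several members the Pomc-high difference came largely from T8. Chl1 ranged from 2.66 to 7.36 CPM in the Rb1/Trp53 libraries (median 3.55 CPM) and stood at 4.53, 4.79, 6.93 and 42.3 CPM in Rb1/Trp53/Crebbp T5 to T8. T8 alone lay outside the range of the other genotype, and the log2 difference of 1.79 ± 0.65 (adjusted p = 0.118, edgeR) was 0.36 ± 0.33 without it. Astn2 ranged from 3.41 to 5.403 CPM (median 3.89 CPM) and stood at 5.16, 4.13, 4.95 and 17.4 CPM, and its difference of 0.99 ± 0.37 (adjusted p = 0.114, edgeR) was 0.26 ± 0.22 without T8. For both genes the other 3 Rb1/Trp53/Crebbp libraries lay within the Rb1/Trp53 range.

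L1cam ranged from 11.9 to 17.1 CPM in the Rb1/Trp53 libraries (median 14.6 CPM) and stood at 20.4, 17.3, 21.5 and 63.9 CPM in Rb1/Trp53/Crebbp T5 to T8. The groups did not overlap, but the difference of 1.13 ± 0.33 did not pass (adjusted p = 0.0592, edgeR). Without T8 it was smaller, at 0.50 ± 0.14, and passed (adjusted p = 0.0418, edgeR), and it also passed without Rb1/Trp53/Crebbp T6 (1.32, adjusted p = 0.029). Nrcam ranged from 41.6 to 63.9 CPM (median 56.5 CPM) and stood at 42.7, 43.8, 42.3 and 94.5 CPM in Rb1/Trp53/Crebbp T5 to T8. T8 lay above and the other 3 near the bottom of the Rb1/Trp53 range, and the difference of 0.07 ± 0.24 (adjusted p = 0.895, edgeR) was -0.30 ± 0.14 without T8 (adjusted p = 0.218).

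Nfasc ranged from 218 to 324 CPM in the Rb1/Trp53 libraries (median 243 CPM) and stood at 185, 209, 195 and 205 CPM in the Rb1/Trp53/Crebbp libraries. All 4 lay below the other genotype, but the difference of -0.35 ± 0.11 did not pass (adjusted p = 0.0589, edgeR); without T8 it was -0.35 ± 0.12. Ncam1 ranged from 183 to 328 CPM (median 272 CPM) and stood at 330, 305, 347 and 414 CPM in Rb1/Trp53/Crebbp T5 to T8. T6 lay within the Rb1/Trp53 range, and the difference of 0.44 ± 0.15 did not pass (adjusted p = 0.0902, edgeR); without T8 it was 0.36 ± 0.15. Ncam2 ranged from 9.13 to 18.1 CPM (median 11.98 CPM) and stood at 6.85, 9.95, 10.8 and 21.3 CPM, and its difference was -0.06 ± 0.29 (adjusted p = 0.92, edgeR). It was -0.46 ± 0.22 without T8, which was the highest of all 10 libraries. Cadm1 ranged from 161 to 208 CPM (median 180 CPM) and stood at 203, 210, 200 and 271 CPM, with overlap, and its difference of 0.31 ± 0.11 did not pass (adjusted p = 0.0912, edgeR); without T8 it was 0.21 ± 0.10.

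**Figure D3:**
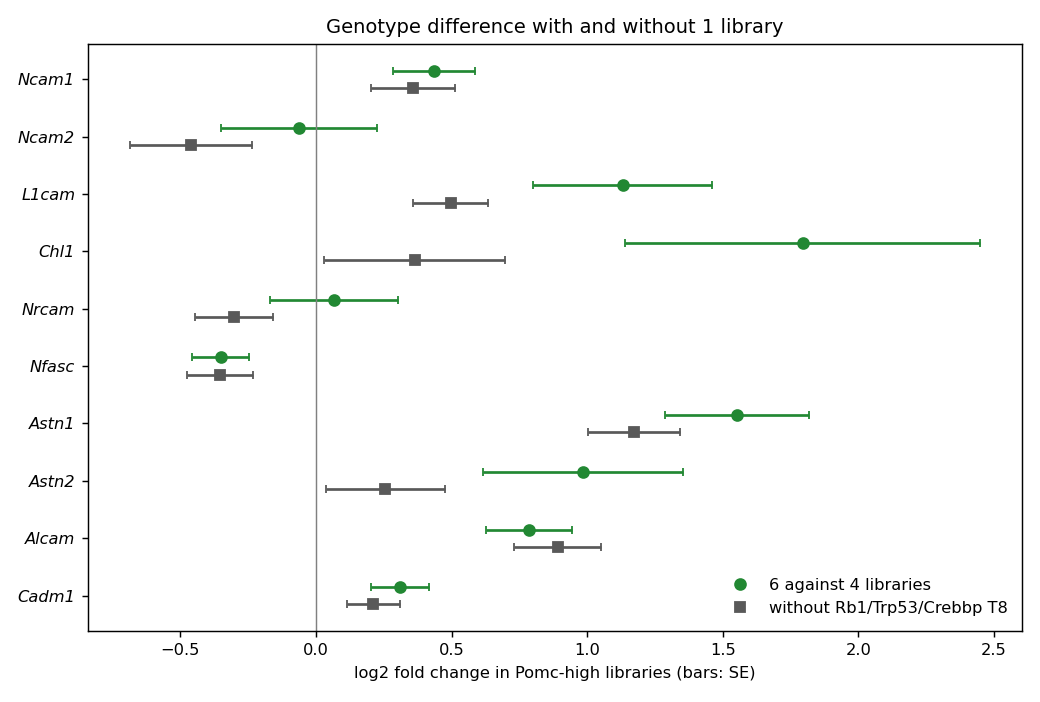
Log2 fold change of Rb1/Trp53/Crebbp over Rb1/Trp53 in the Pomc-high libraries with all 10 libraries (circles) and without Rb1/Trp53/Crebbp T8 (squares); bars are SE. Chl1 moved from 1.79 to 0.36 and Astn2 from 0.99 to 0.26, while Alcam moved from 0.79 to 0.89.

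**Figure D4:**
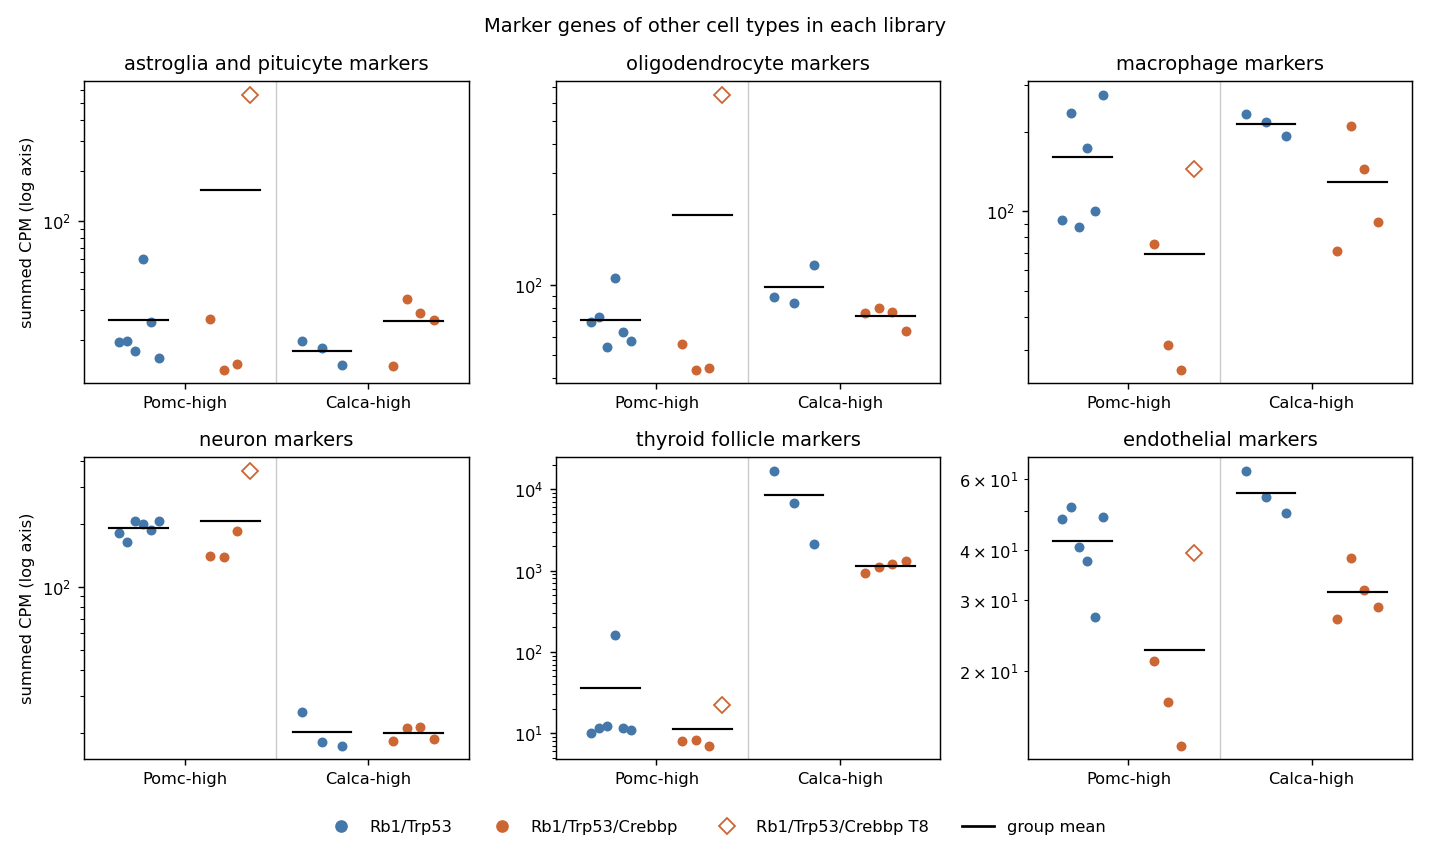
Summed CPM (log axis) of 6 marker lists in each library by set and genotype; lines are group means and the open diamond is Rb1/Trp53/Crebbp T8. T8 stood at 561 CPM for astroglia and pituicyte markers, and in the Calca-high set the Rb1/Trp53 libraries stood at 2114 to 16867 CPM for thyroid follicle markers.

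Most markers of brain glia were higher in T8 than in any other Pomc-high library. All 7 astroglia and pituicyte markers were, led by Slc1a2 (217 CPM against 0.852 to 4.598), Gfap (155 against 0.320 to 33.0) and Slc1a3 (128 against 2.66 to 9.96). Of the oligodendrocyte markers 6 of 7 were, led by Mbp (502 CPM against 42.7 to 99.2) and Mobp (70.3 against 0 to 4.34), and Opalin was at 0 in T8. Of the neuron markers Gad2 (114 CPM against 39.996 to 101), Camk2a (95.8 against 5.17 to 22.2), Gad1 (50.7 against 0.0781 to 0.894) and Slc17a6 (43.9 against 0.156 to 2.88) were higher in T8 than in the others, Neurod6 rested on 2 reads, Rbfox3 lay within the range and Slc17a7 below it. In T8 the Pomc-cell markers summed to 94292 CPM, the lowest of the Pomc-high libraries, but nearly all of this sum was Pomc (93777 CPM). Pax7 was also lowest in T8 (125 CPM against 178 to 298), whereas Tbx19 lay within the range of the others (389 against 305 to 418). The part of the glial and neuronal RNA in the members' T8 values was not tested.

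The genotype effect itself differed between the sets for 5 of 10 members, tested as an interaction over all 17 libraries in which 22.9% of 15432 genes passed. Astn1 rose more in the Calca-high than in the Pomc-high libraries, by 3.62 ± 0.51 on the log2 scale (adjusted p = 0.000383, edgeR). Ncam2 (1.70 ± 0.44, adjusted p = 0.0126) and Nrcam (1.46 ± 0.50, adjusted p = 0.0477) also had the larger effect beside Calca. Without T8 these were 3.95 for Astn1 (adjusted p = 3.64e-05, edgeR), 2.05 for Ncam2 (0.00129) and 1.78 for Nrcam (0.0122). For Nfasc the difference of the effects was 0.67 ± 0.23 (adjusted p = 0.0456, edgeR). Alcam went the other way, at -1.52 ± 0.24 (adjusted p = 0.000656, edgeR), with opposite effects in the 2 sets. Without T8 Alcam had -1.68 (adjusted p = 0.000304, edgeR), and Nfasc had 0.63 and did not pass (0.0671).

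The interaction calls of Astn1, Alcam and Ncam2 held when any 1 of the 17 libraries was left out, whereas those of Nrcam and Nfasc were each lost in 12 of 17, with adjusted p up to 0.117 and 0.151 (edgeR). Chl1 rose by 1.77 in one set and had a difference of 1.79 in the other, so its interaction was -0.05 ± 0.78 (adjusted p = 0.969, edgeR). Without T8 it was 1.34 ± 0.39 (adjusted p = 0.0228, edgeR). For Ncam1 (0.07, adjusted p = 0.852), L1cam (-0.47, 0.492), Astn2 (-0.35, 0.636) and Cadm1 (0.34, 0.131) no difference of the effects passed, which does not show that the effects were alike. Without T8 these were 0.10 (adjusted p = 0.769, edgeR), 0.12 (0.773), 0.33 (0.398) and 0.40 (0.0583), so those of L1cam and Astn2 changed sign.

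The proteins that modify, anchor, cut or bind these adhesion molecules were followed in 7 lists of 58 genes in all. In the Calca-high libraries 21 of 53 tested partner genes rose and 3 fell (median log2 fold change 0.35), where 36.2% of all genes passed (19.1% higher and 17.1% lower). In the Pomc-high libraries 5 of 54 rose and 6 fell (median 0.10), where 8.42% of all genes passed (3.15% higher and 5.26% lower). The counts of each list below are to be read beside these shares. Without T8, where 8.6% of all genes passed, 3 of 53 rose beside Pomc (Spnb1, Cntn1 and Cadm4) and 9 fell (median -0.02).

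Of the polysialyltransferases, which add polysialic acid to Ncam, both rose in the Calca-high libraries. St8sia4 stood at 0.687, 0.417 and 0.201 CPM in Rb1/Trp53 T1, T3 and T4 (15, 11 and 4 reads) and at 5.49, 4.34, 6.77 and 4.08 CPM in Rb1/Trp53/Crebbp T1 to T4. The groups lay far apart, and St8sia4 rose by 3.56 ± 0.44 (adjusted p = 0.0016, edgeR). St8sia2 stood at 0.366, 0.607 and 2.21 CPM against 3.80, 2.996, 3.51 and 5.21 CPM and rose by 1.90 ± 0.58 (adjusted p = 0.0347, edgeR), a call lost in 5 of 7 fits without 1 library. Beside Pomc St8sia2 rose by 0.86 ± 0.22 (adjusted p = 0.0286, edgeR), but not without T8 (0.76, adjusted p = 0.0591).

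Of the membrane skeleton and cytoplasmic partners, 9 of 18 rose and 1 fell in the Calca-high libraries, where 36.2% of all genes passed. Those that rose included 4 spectrin genes and 2 genes of the ankyrins that anchor L1 family proteins, Ank2 (1.90 ± 0.28) and Ank3 (0.54 ± 0.17), which were picked out with their values known, as was the ezrin gene Ezr that fell (-0.50 ± 0.15, adjusted p = 0.0324, edgeR). Spnb1 (Sptb, a beta spectrin) rose from 36.4 ± 4.79 (SD, n = 3) to 90.3 ± 18.6 CPM (SD, n = 4), by 1.33 ± 0.17 (adjusted p = 0.00186, edgeR), and Spna2 (Sptan1, alpha spectrin) by 0.67 ± 0.10 (adjusted p = 0.00243). Epb4.1l2, a protein 4.1 that links membrane proteins to spectrin, rose by 1.10 ± 0.12 (adjusted p = 0.00129, edgeR). Tiam1, an activator of Rac that binds Cadm1 complexes, rose by 1.23 ± 0.16 here (adjusted p = 0.00171, edgeR) and fell by 0.57 ± 0.14 in the Pomc-high libraries (adjusted p = 0.0224, edgeR). In that set 2 of 17 rose, Spnb1 by 0.68 ± 0.15 (adjusted p = 0.0134, edgeR) and Epb4.1l1 by 0.51 ± 0.14 (adjusted p = 0.045, edgeR; named after its value had been seen; 0.30 without T8, adjusted p = 0.0625), and 3 fell: Tiam1, the scaffold gene Mpp3 (-0.47 ± 0.11, adjusted p = 0.0189) and the moesin gene Msn (-0.48 ± 0.13, adjusted p = 0.0333).

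Of the co-receptors and signalling partners, 3 of 11 rose and 1 fell in the Calca-high libraries, where 36.2% of all genes passed. In the Pomc-high libraries 0 of 12 rose and 2 fell, where 8.42% of all genes passed. Gfra1, the GDNF receptor subunit that also binds Ncam, stood at 5.77, 2.88 and 0.953 CPM in Rb1/Trp53 T1, T3 and T4 and at 18.4, 31.8, 38.7 and 29.9 CPM in Rb1/Trp53/Crebbp T1 to T4. It rose there by 3.22 ± 0.55 (adjusted p = 0.00498, edgeR). Beside Pomc it went from 60.2 ± 8.07 (SD, n = 6) to 27.2 ± 9.86 CPM (SD, n = 4) and fell by 1.12 ± 0.20 (adjusted p = 0.00509, edgeR). The 2 effects differed by 4.35 ± 0.53 (adjusted p = 0.000138, edgeR). Fgfr2, of the FGF receptors that Ncam and L1 engage, fell in both sets, with a log2 fold change of -2.06 ± 0.50 in the Calca-high (adjusted p = 0.0165, edgeR) and -0.99 ± 0.17 in the Pomc-high libraries (adjusted p = 0.00479, edgeR). Fyn, the Src family kinase bound to Ncam, rose by 0.34 ± 0.08 (adjusted p = 0.016) and the phosphatase gene Ptpra by 0.39 ± 0.08 (adjusted p = 0.00947) in the Calca-high libraries.

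Of the sheddases, which cut adhesion proteins such as L1cam and Chl1 from the membrane, Bace1 (0.87 ± 0.12, adjusted p = 0.00216, edgeR) and Adam10 (0.37 ± 0.11, adjusted p = 0.0294) rose beside Calca and 0 of 5 passed beside Pomc. Of the 5 tested partners outside the cell, Cntn1, a lipid-anchored contactin that binds L1 family proteins, was the 1 that passed. It stood at 1.97, 1.21 and 2.66 CPM in the Rb1/Trp53 and at 32.4, 35.2, 47.3 and 46.3 CPM in the Rb1/Trp53/Crebbp libraries of the Calca-high set. The groups lay far apart, and Cntn1 rose by 4.40 ± 0.29 (adjusted p = 0.000521, edgeR). Beside Pomc it rose by 2.11 ± 0.30 (adjusted p = 0.00248, edgeR), and by 1.64 ± 0.16 without T8.

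Of the related immunoglobulin-domain genes, Cadm2 (2.31 ± 0.35, adjusted p = 0.00278, edgeR) and the nectin gene Pvrl1 (0.85 ± 0.28, adjusted p = 0.0478) rose and the nectin gene Pvrl2 fell (-0.62 ± 0.11, adjusted p = 0.00429) among 10 in the Calca-high set. Beside Pomc Cadm4 rose (0.63 ± 0.16, adjusted p = 0.0279, edgeR) and the endothelial and smooth muscle adhesion gene Mcam fell (-0.74 ± 0.19, adjusted p = 0.0286). Of the Brinp genes, relatives of the astrotactins, both that were tested in the Calca-high libraries rose. Fam5b (Brinp2) had 1, 6 and 5 reads in Rb1/Trp53 T1, T3 and T4 and 53, 85, 84 and 89 reads in Rb1/Trp53/Crebbp T1 to T4, with a fitted change of 4.89 ± 0.44 (adjusted p = 0.00078, edgeR) whose size depends on the prior count. Dbc1 (Brinp1) rose by 1.19 ± 0.33 (adjusted p = 0.0245, edgeR).

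Several partner calls were lost when 1 library was left out. With 1 library left out, the Calca-high calls were lost in 5 of 7 fits for Adam10 and Pvrl1, in 3 for Dbc1 and in 1 for Fyn, and the Pomc-high calls in 7 of 10 fits for Msn, 6 for St8sia2, 5 for Mcam, 3 for Cadm4, 2 for Tiam1 and 1 for Mpp3. Without T8, Spnb1 (0.52), Cadm4 (0.44), Mpp3 (-0.49), Tiam1 (-0.53), Msn (-0.63), Fgfr2 (-0.99), Gfra1 (-0.95) and Mcam (-0.83) kept their direction and still passed. Fgfr1 (-0.85, adjusted p = 0.00675, edgeR), Cntnap1 (-0.58, 0.0226) and Dbc1 (-0.60, 0.00819) passed as lower beside Pomc without T8 but not with all 10 libraries, and are named with these values seen.

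**Figure D5:**
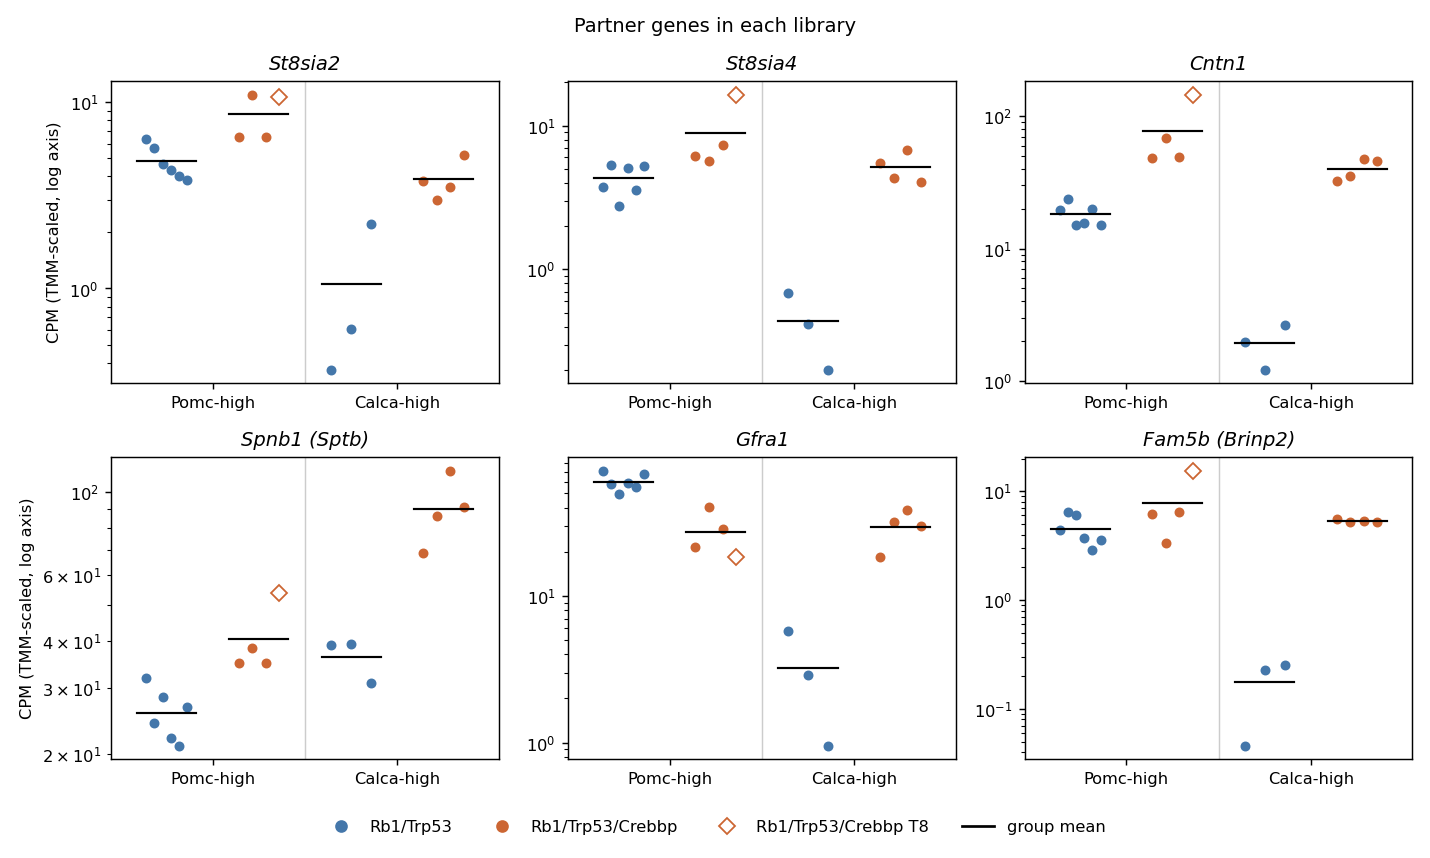
CPM (TMM-scaled, log axis) of 6 partner genes in each library by set and genotype; lines are group means and the open diamond is Rb1/Trp53/Crebbp T8. Gfra1 was higher in the Rb1/Trp53/Crebbp libraries of the Calca-high set and lower in those of the Pomc-high set, and Cntn1 was higher in both.

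The genes whose pattern was most like each member's were taken by Pearson's r of log2 CPM centred on the mean of each set, over 17 libraries and 11966 genes, as a description in which the points share genotype and T8. Cntn1 was the gene most like Astn1 (r = 0.98), ahead of the protocadherin gene Pcdh10 and Tmem136 (both 0.96). Those most like Chl1 were Ppp2r2b (0.96), Fam110b (0.93) and Fam19a5 (0.92), and those most like Astn2 were Jph3 (0.94), Rap1gds1 (0.90) and Sms (0.90). Ncam1 was followed by Abi2 (0.94), C230096C10Rik (0.92) and Lphn3 (0.89), Ncam2 by Ptprt (0.91), Vstm2a (0.90) and Prickle2 (0.90), and Nrcam by Itpkb (0.90), Ptprg (0.89) and Thsd7a (0.88). Cadm1 was followed by Dock11, its partner gene Epb4.1l2 and Dcp2 (all 0.93), and Alcam by Kdelc2 (0.87), H2-Q1 (0.85) and Sort1 (0.83). Among the members, Astn2 and Chl1 (r = 0.89) and Astn1 and Cadm1 (0.88) were the closest pairs, and Ncam2 and Alcam (-0.63) the most opposed.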

How the data were processed

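RNA of 17 tumours was sequenced after oligo-dT selection. The authors deposited 1 table of raw read counts per tumour, with 23284 genes and 5 summary rows that were left out; the submitters' processing notes name bcl2fastq 1.8.2, TopHat2 2.0.12, HTSeq 0.6.1 and build mm9. The sources used here do not give the annotation or strand setting. No 2 of 136 library pairs agreed within sampling noise (chi-square per degree of freedom at least 8.30).

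Fits used edgeR 4.0.16 in R 4.3.3: filterByExpr, TMM, robust quasi-likelihood F test, Benjamini-Hochberg over all tested genes. Positive log2 fold changes mean more in Rb1/Trp53/Crebbp tumours, an SE is the size of the change over the root of its F value, and the prior count in log2 CPM was 2. Fits covered all libraries, each set, and an interaction in a model of 4 groups; the script was tested on simulated data. Members, sets and lists were chosen with earlier results of these data known. The rule named all 10 members, up to 4 passing genes per partner list and set, and, per member that passed, 3 similar genes whose mean reached 5 CPM. Scaling to the total on genes instead of TMM shifts the median gene by -0.14 between the sets and by 0.12 and 0.18 between genotypes, and changes are relative to TMM. Tumour numbers were not used to pair libraries in the main fits. Over 7 same-numbered pairs within a set, 1 correlation of the deviations from the group means exceeded 0.1. Groups this small cannot exclude a pairing. Other settings were DESeq2 1.42.0 and its size factors, limma-voom (limma 3.58.1), no low-count filter, a replicate block, the set as a term and each library left out. Promoters came from the RefSeq table of GRCm38.p6, which lists 8 members. Figures were drawn with matplotlib 3.10.9.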

Additional observations from a re-analysis of the deposited data

Results flagged for a closer look

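Dixon's criterion, by which a single test flags about 1 in 20 by chance, was applied to 30 combinations of a member and a group of 4 or 6 libraries. The members share these libraries, so the combinations are not independent and their count is not set against chance. In 7 of them a library stood apart from the rest. In the Pomc-high set 6 of these were Rb1/Trp53/Crebbp T8, at 63.9 CPM for L1cam (next library 21.5), 42.3 for Chl1 (6.93), 94.5 for Nrcam (43.8), 132 for Astn1 (63.9), 17.4 for Astn2 (5.16) and 271 for Cadm1 (210). The seventh was Rb1/Trp53/Crebbp T4 of the Calca-high set, at 411 CPM for Cadm1, where the 3 others stood at 364 CPM.

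The genotype effect differed between Calca-high and Pomc-high libraries, by the interaction test of edgeR, for Astn1 (3.62, log2), Ncam2 (1.70), Nrcam (1.46), Nfasc (0.67) and Alcam (-1.52). Of all 55 tested partner genes, 12 passed this test as higher and 1 as lower, where 22.9% of all 15432 genes passed. Among the partner genes named by the rule, which had passed within a set, it differed for Gfra1 (4.35), Fam5b (4.07), St8sia4 (2.49), Cntn1 (2.30), Tiam1 (1.81), Dbc1 (1.61), Msn (1.41), Pvrl1 (1.22), Bace1 (0.67), Mpp3 (0.64), Fyn (0.47) and Cadm4 (-0.83). Tiam1, Msn and Gfra1 rose beside Calca and fell beside Pomc. Cadm4 rose beside Pomc and did not pass beside Calca. Without T8, where 3620 of 15401 genes passed, every partner gene listed here kept its direction and still passed. Ank2 (1.98), Spna2 (0.41), Spnb1 (0.77), Spnb2 (0.66), Spnb3 (0.99), Epb4.1l2 (0.76), Fgfr1 (0.69) and Cadm2 (2.01) also passed then as higher. Pvrl2 (-0.56) passed as lower, and these genes are named with their values seen.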

How the results depend on the processing

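Over all libraries the 1 changed member became 4 with DESeq2, 2 with limma-voom, 2 with the tumour number as a replicate block (L1cam and Cadm1, while Ncam1 was lost), 6 with the set as a second term and 0 to 2 with 1 library left out. In the Pomc-high libraries the 2 changed members became 6 with DESeq2 (Ncam1, L1cam and Cadm1 higher and Nfasc lower in addition) and 1 with the block, where Astn1 had 1.29 (adjusted p = 0.116, edgeR). They were 2 to 3 with 1 library left out. In the Calca-high libraries the 8 became 9 with DESeq2 or limma-voom, 6 with the block (Nrcam and Astn2 lost) and 6 to 9 with 1 library left out. The 5 interactions became 3 without a low-count filter (Nrcam and Nfasc lost) and 3 to 5 with 1 library left out. The 3 members that did not overlap between the sets became 3 to 6 with 1 library left out.

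No value that changed sign had passed a test with all libraries of its comparison in the fit; the Chl1 interaction did pass without T8, with the sign changed. Over all libraries Ncam2 was 0.47, Nrcam 0.37 and Alcam -0.12 with limma-voom, 0.21, 0.33 and -0.043 with the block, and Ncam2 0.52 and Nrcam 0.60 with the set as a term. In the Pomc-high libraries Nrcam was -0.0068 with limma-voom, and the set difference of Ncam1 was -0.052 when scaled to the total on genes. With 1 library left out, Nrcam ranged from -0.53 to 0.033 over all libraries, and in the Pomc-high ones Ncam2 ranged from -0.46 to 0.13 and Nrcam from -0.30 to 0.18. The interaction of Ncam1 ranged from -0.045 to 0.15, of Chl1 from -0.36 to 1.34, of L1cam from -0.67 to 0.12 and of Astn2 from -0.57 to 0.33, and the set difference of Nfasc ranged from -0.17 to 0.033. Of the named partner calls, Pvrl1 beside Calca was lost with DESeq2 size factors (adjusted p = 0.0504, edgeR) and with no low-count filter (0.0606), and Fgfr2 beside Calca with limma-voom (0.0656). With the block 5 were lost beside Calca (Ptpra, Fyn, Adam10, Pvrl1 and Dbc1) and 8 beside Pomc (St8sia2, Spnb1, Mpp3, Tiam1, Msn, Gfra1, Cadm4 and Mcam), with adjusted p from 0.0578 to 0.177. The cause of these changes was not tested. Depth limits the size of the largest changes: in the 3 Rb1/Trp53 libraries of the Calca-high set Astn1 rests on 12 to 30 reads and Fam5b on 1 to 6.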
